A study of Cricetulus griseus with 3 samples.

Results

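Cells build the sugar chains of their proteins and lipids with a large set of glycosyltransferases, trimming mannosidases and sulfotransferases. The relative RNA abundance of these genes was analyzed in cells with enhanced against inhibited γ-secretase activity. The genes were chosen by name, as the spots of the array that carry a single gene symbol of these families: Galnt, B3gal, B4gal, Mgat, Man1 and Man2 alpha-mannosidases, St3, St6 and St8 sialyltransferases, Alg, Fut, Chst, Hs sulfotransferases, Ext and Extl, Pig with 1 further letter, Dpm and Pmm. Man2b1 was left out. This gave 89 spots of 63 genes, out of 16928 tested spots, of which 12563 carried a single name and represented 8146 genes. The letters of the rule also drew in Pigr, which encodes the polymeric immunoglobulin receptor and no enzyme of glycan synthesis, and Man2c1, a mannosidase that breaks down free sugar chains in the cytosol.

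Each of the 3 arrays compared S-1 cells with the parental CHO cells. CHO, from Chinese hamster ovary, is a long established cell line, and S-1 is a line derived from it through an intermediate transfected line. S-1 overexpresses the subunits of γ-secretase, the membrane protease that cleaves Notch and many other membrane proteins, from constructs that include Flag-Pen2, Aph1-a2-HA and NCT-GST, and the study also marks APP as overexpressed in it. S-1 cells were grown with G418, puromycin, zeocin, hygromycin and blasticidin and received 0.05% DMSO for 24 h. The parental CHO cells had no selection drug listed and received 10 µM of the γ-secretase inhibitor DAPT in 0.05% DMSO for the same 24 h. Constructs, selection drugs, line history and inhibitor therefore all differ at once, and their parts in any difference cannot be told apart. Each array paired 1 S-1 culture with 1 DAPT-treated CHO culture of the same experiment (n = 3 experiments), with S-1 RNA in Cy3 on arrays 1 and 2 and in Cy5 on array 3.

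All values are log2 ratios with S-1 over DAPT-treated CHO, so a value below 0 means a lower RNA signal in S-1 cells. A value of 0 means equal signal. A ratio gives no level: it does not show whether a gene was well or barely expressed, and markers of the cell type could not be read from it. In RNA of whole cultures, fewer expressing cells and less RNA per cell cannot be told apart. The direction was checked on the transfected subunits other than PS1. Psenen (which encodes Pen2) had a mean log2 ratio of 3.09 ± 0.25 and Aph1a of 2.02 ± 0.16 (SD, n = 3). Ncstn, at 0.38 ± 0.25, did not pass (adjusted p = 0.0352). Across the tested spots (a comparison over genes, not over independent samples) Pearson's r was 0.962 for arrays 1 and 2, and 0.878 and 0.892 for array 3 against each of them in that order. The array carries mouse cDNA clones, and 58 of the 63 genes have a hamster gene of the same symbol in RefSeq. The clones could not be checked by sequence here, and no sequence is shown.

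As background, an N-glycan begins as a sugar chain built on the lipid dolichol in the endoplasmic reticulum (ER), from mannose and glucose that Pmm, Dpm and Alg enzymes supply and attach. Oligosaccharyltransferase moves the chain onto a new protein, glucosidases and lectins such as calnexin then guide its folding, and Golgi mannosidases and Mgat enzymes trim and branch it before galactose, sialic acid and fucose cap it. Mucin-type O-glycans, the heparan and chondroitin sulfate chains of proteoglycans and the glycolipid (GPI) anchor of cell surface proteins are built by separate sets of enzymes. CHO cells are the usual host for making glycoprotein drugs, and mutants of them were used to identify many of these genes.

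Most spots of these genes had a mean ratio within 0.5 of 0, and those that passed the test were mainly lower in S-1. At an adjusted p under 0.005 in limma, the study's threshold, 12 of 89 spots passed (13.5%), of which 2 were higher and 10 lower in S-1. Over all tested spots 18.2% passed, 9.68% higher and 8.52% lower. The share of spots that were lower (11.2%) was thus near that of the whole array, and the share that were higher (2.25%) was below it. All but 1 of the 89 spots carry clones of the large H collection, over which 15.3% of spots passed, 6.76% higher and 8.52% lower. At an unadjusted p under 0.05, which 48.7% of all tested spots and 54.2% of all genes met, there were 47 of the 89 spots and 35 of the 63 genes. With the spots of a gene averaged, 12 of 63 genes passed (19%), 2 higher and 10 lower, against 22.6% of all genes, 12.4% higher and 10.3% lower. These shares of all genes include 480 spots at positions from which the study lists no clone. Their median log2 ratio was 1.56, and 0 of them were members. With those spots left out 11 of 63 genes passed, against 19.9% of all genes. In a fit of H clones alone it was 9 of 62, against 18.7%. The genes that passed were Chst11, Pigs, Extl3, Man1a, Extl2, Pigq, Man1a2, Mgat2, Mgat1 and B4galt4 on the lower side and Pmm2 and Pigr on the higher side. The mean log2 ratio of the 89 spots ran between −1.87 and 0.51 with a median of −0.02 (0.01 over all tested spots), and 9 spots lay beyond 0.5 in either direction, against 15.3% of all tested spots. It was below 0 in 52 of 89 spots (47.9% over all tested spots), and the sign was the same on all 3 arrays in 62 of 89 (67.6% over all). The counts depended on single arrays: 3 spots passed without array 1, 0 without array 2 (37 of 89 at an unadjusted p under 0.05 in limma, the only tool used) and 34 without array 3, and the share of all tested spots moved with them, to 7.98%, 2.14% and 37%. The 3 spots that passed without array 1 were Ext1, Chst11 and Extl3.

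**Figure D1:**
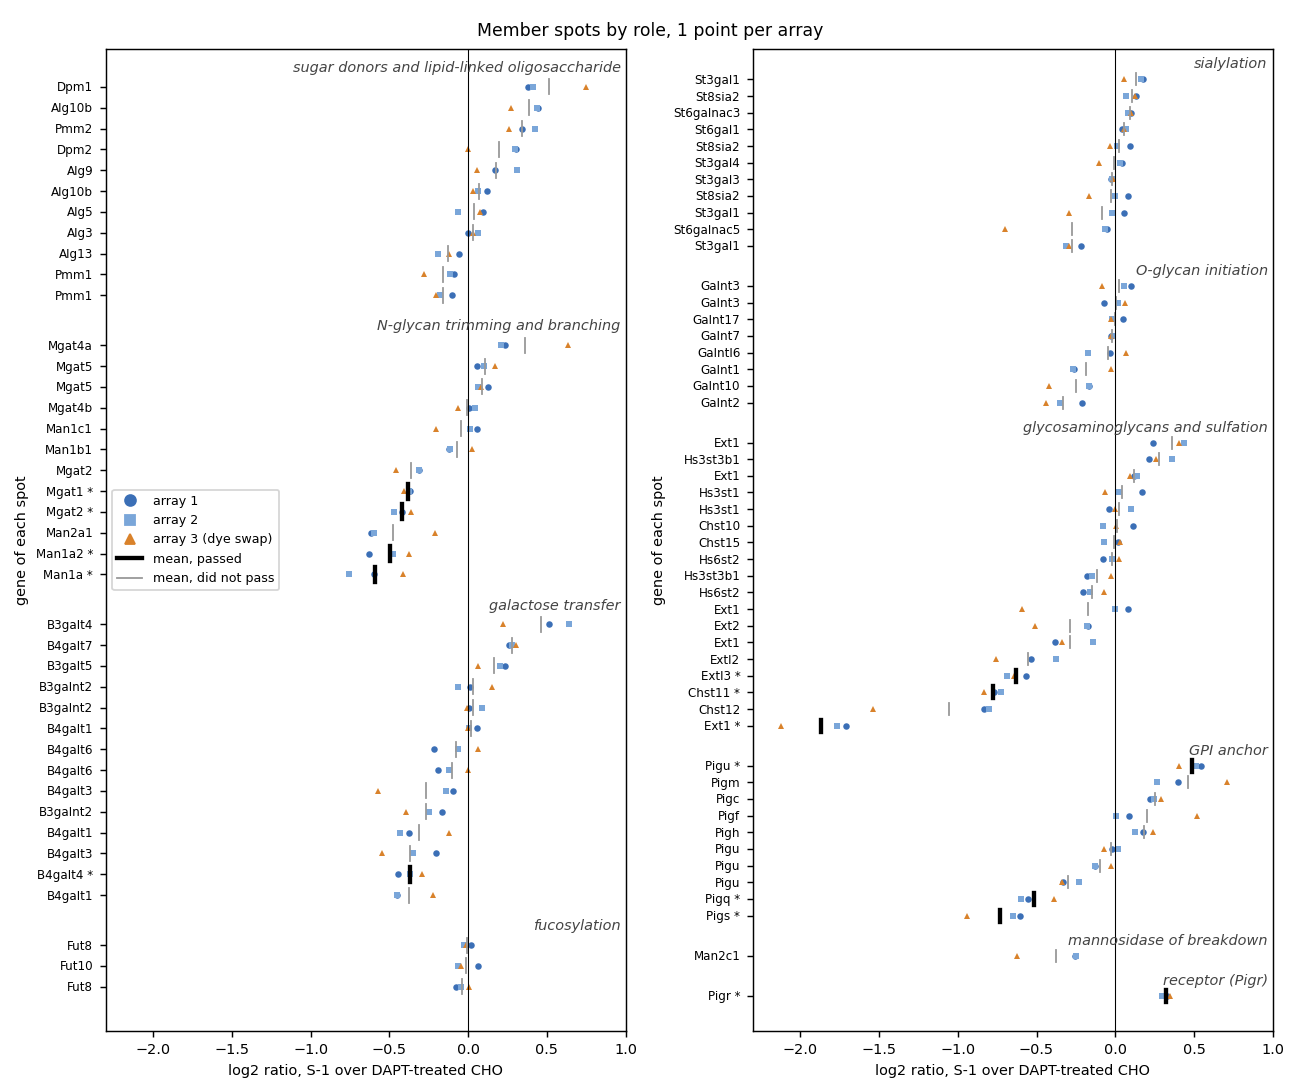
Log2 ratio (S-1 over DAPT-treated CHO) for each of the 89 spots on arrays 1, 2 and 3, grouped by the role of the gene. The vertical bar is the mean of the 3 arrays, thick and black where the spot passed (adjusted p under 0.005, gene marked *), and 1 Ext1 spot at −1.87 lies far below every other spot.

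Most of the enzymes that supply sugars to the lipid-linked chain had gene values above 0. Of 9 genes, 7 did, as did 4229 of all 8146 genes. The median was 0.18 over genes and 0.07 over the 11 spots, and 1 gene passed (11.1%, against 22.6% of all genes). Pmm2, the phosphomannomutase that makes mannose-1-phosphate and whose loss causes the most common congenital disorder of glycosylation in humans, had ratios of 0.34, 0.42 and 0.26 on arrays 1, 2 and 3. Its mean was 0.34 ± 0.08 (SD, n = 3). It rose in S-1 as a gene value (adjusted p = 0.00486) and missed the threshold as a spot (0.00606), since each is adjusted over its own table. The gene value also missed it with a robust variance prior (0.00513), with the spots at unlisted positions left out (0.00505), with H clones alone (0.00501), and without array 1 or array 2. Dpm1, the catalytic subunit of dolichol-phosphate mannose synthase, had 0.38, 0.41 and 0.75, a mean of 0.51 ± 0.20 that did not pass (0.00823). All 3 ratios were above 0, and array 3 alone exceeded the other arrays by more than their spread. One spot of Alg10b, which adds the last glucose of the chain, had 0.44, 0.44 and 0.27 and a mean of 0.38 ± 0.10 (0.00524), while the other spot of the gene averaged 0.07. Dpm2, a stabilizing subunit of the same synthase as Dpm1, had 0.30, 0.30 and 0.00. Alg9 averaged 0.18, Alg5 and Alg3 0.03 each, Alg13 −0.13, and both spots of Pmm1, the paralog of Pmm2, averaged −0.16. None of the 11 spots of this group passed in limma (7 had an unadjusted p under 0.05).

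The genes around these enzymes were taken from a list of nucleotide sugar and dolichol synthesis and transport, of which 20 were measured, with a median of 0.07. The list held 1 gene that rose and 1 that fell (5% each, against 12.4% and 10.3% of all genes). Mpi, the isomerase that makes mannose-6-phosphate from its fructose counterpart in the step before Pmm2, had −0.997, −1.45 and −1.56 and a mean of −1.34 ± 0.30 (adjusted p = 0.00101). Pmm2 and Mpi, consecutive enzymes, thus had ratios of opposite sign on every array. Slc35b1, a nucleotide transporter of the ER, had 0.45, 0.54 and 0.45, a mean of 0.48 ± 0.05 (0.00126), and both of its spots passed.

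Trimming and branching of N-glycans in the Golgi was the role with the highest share of genes that fell, 4 of 10 (40%, against 10.3% of all genes), and none rose. Man1a and Man1a2 encode Golgi alpha-mannosidases that cut the mannose chain down. Man1a had −0.60, −0.76 and −0.42 on arrays 1, 2 and 3, a mean of −0.59 ± 0.17 (adjusted p = 0.00354). Man1a2 had −0.63, −0.48 and −0.38, a mean of −0.49 ± 0.13 (0.00343). In linear terms the DAPT-treated CHO signal was 1.51 and 1.41 times the S-1 signal for Man1a and Man1a2. Mgat1 adds the N-acetylglucosamine with which every hybrid and complex N-glycan starts, and CHO mutants without it make only chains of the mannose type. It had −0.37, −0.37 and −0.41, a mean of −0.38 ± 0.02 (0.00251), the smallest spread between arrays among the spots that passed. Mgat2, which starts the opposite branch, had 2 spots. One had −0.42, −0.47 and −0.36, a mean of −0.42 ± 0.05 that passed (0.00239), and the other had −0.31, −0.31 and −0.45, a mean of −0.36 ± 0.08 just short of the threshold (0.00525). The 2 spots of Mgat2 thus had nearly the same value, and the gene value of −0.39 ± 0.02 passed (0.0018).

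Man2a1, the Golgi mannosidase that acts between Mgat1 and Mgat2, had −0.62, −0.60 and −0.21. Its mean of −0.48 ± 0.23 was close to that of Man1a2 but did not pass (adjusted p = 0.0142), with array 3 well above the other arrays. The genes for later branches did not follow. Mgat4a had 0.23, 0.21 and 0.63 and a mean of 0.36 ± 0.24 (0.0382), Mgat4b averaged −0.01, and the 2 spots of Mgat5 averaged 0.09 and 0.11. Man1c1, another Golgi mannosidase, and Man1b1, the mannosidase of the ER, averaged −0.05 and −0.07. Across the 6 genes of the route as far as the first galactose (Man1a, Man1a2, Mgat1, Man2a1, Mgat2 and B4galt1), a set picked after the values were seen and therefore not tested, all gene values were below 0, between −0.59 and −0.22. Without array 2 none of the spots of this role passed, and without array 1 none did either.

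**Figure D2:**
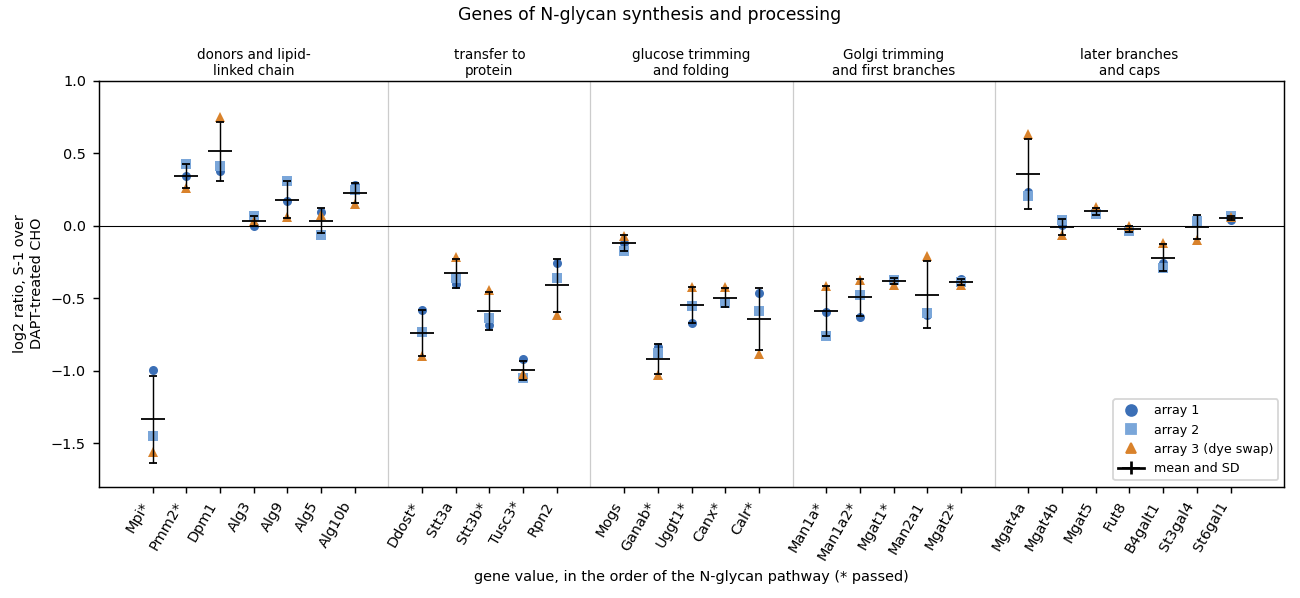
Gene values (log2 ratio, S-1 over DAPT-treated CHO, averaged over the spots of a gene) in the order of the N-glycan pathway, with 1 point per array and the mean and SD of the 3 arrays. Genes marked * passed in the gene fit. Only part of each list is plotted, and genes not plotted include some on the other side of 0 (Krtcap2, Edem1 and Edem2 above it, Pmm1, Alg13 and Gnpnat1 below it). The plotted genes of transfer to protein are those with the lowest gene values of the 11 measured subunits. Means lie below 0 for the plotted genes from transfer to the first Golgi steps, and above 0 for the plotted donor genes other than Mpi. As the genes were picked, these signs do not describe whole steps.

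The steps in the ER between the lipid-linked chain and the Golgi mannosidases, which the rule of names does not reach, were read from 2 further lists. All the further lists were chosen with earlier results of these data known. Their shares beside those of all genes were therefore not tested and cannot show that a step stands out. Of 10 measured glucosidases and lectins of the ER, 6 fell (60%, against 10.3% of all genes) and none rose (12.4% of all genes). Ganab, the catalytic subunit of glucosidase II, had −0.84, −0.88 and −1.03, a mean of −0.92 ± 0.10 (adjusted p = 3.52e-04), and both of its spots passed. Lman2, a cargo lectin of the secretory route, had −0.60, −0.65 and −0.79, a mean of −0.68 ± 0.10 (adjusted p = 7.94e-04). Calr, the lectin chaperone calreticulin, had −0.47, −0.59 and −0.88 (adjusted p = 0.00385). All 3 arrays lay below 0 for each of these genes. Uggt1, which puts glucose back on misfolded glycoproteins, had −0.67, −0.55 and −0.42 (adjusted p = 0.00205). Canx and Lman1, 2 more lectins, had gene values of −0.50 and −0.43, and 4 of the 5 Canx spots passed on their own. Mogs, the glucosidase that removes the outermost glucose, averaged −0.12 and did not pass. Neither did Prkcsh, with 0.02, −0.12 and −0.79 (mean −0.30, adjusted p = 0.201), nor Edem1 and Edem2, which averaged 0.17 and 0.02.

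Oligosaccharyltransferase, which moves the finished chain from dolichol to the protein, had 11 measured subunits. Of these, 3 fell (27.3%, against 10.3% of all genes), none rose, and 10 had a gene value below 0, as did 3917 of all 8146 genes. Tusc3, an oxidoreductase subunit of the complex, had −0.92, −1.05 and −1.02, a mean of −0.999 ± 0.07 (adjusted p = 1.85e-04), while its paralog Magt1 averaged −0.12 and did not pass. Ddost, a structural subunit, had −0.58, −0.73 and −0.90, a mean of −0.74 ± 0.16 (0.0013). Of the catalytic subunits, Stt3b had −0.68, −0.64 and −0.44, a mean of −0.59 ± 0.13 that passed (0.00177), and Stt3a had −0.40, −0.36 and −0.22, a mean of −0.33 ± 0.10 that did not (0.00715). The 5 spots of Stt3a disagreed: 2 passed (means −0.60, 0.00386, and −0.38, 0.00338), 2 more averaged −0.47 and −0.45 and did not, and 1 averaged 0.26 (0.00847). The difference between the catalytic subunits was not tested. Over all 6 lists of further glycan genes, 16 of 63 passed (25.4%, against 22.6% of all genes), with 1 higher and 15 lower, and the median was −0.17. Only 6 of the 63 passed without array 1 and 2 without array 2, while 30 passed without array 3, and the share of all genes moved likewise (8.26%, 5.97% and 40.5%).

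Galactose transfer, the next step in the Golgi, showed mixed and mostly small ratios. Of 8 genes, 1 passed (12.5%, against 22.6% of all genes): B4galt4, a beta-galactosyltransferase, had −0.45, −0.37 and −0.29, a mean of −0.37 ± 0.08 (adjusted p = 0.00454), below 0 on all 3 arrays. B4galt1, the main galactosyltransferase of N-glycans, had 3 spots with means of −0.38 ± 0.13 (0.00886), −0.31 ± 0.17 (0.0263) and 0.02 ± 0.03 (0.776). The first of these had −0.45, −0.45 and −0.22, and the gene value was −0.22 ± 0.09. Both spots of B4galt3 were below 0, at −0.37 and −0.27, and both of B4galt6, which makes lactosylceramide, at −0.11 and −0.07. B3galt4, which adds galactose to gangliosides, leaned the other way with 0.52, 0.64 and 0.22, a mean of 0.46 ± 0.21 that did not pass (0.0132). B4galt7, which adds galactose to the xylose that anchors heparan and chondroitin sulfate, had 0.26, 0.28 and 0.30 and a mean of 0.28 ± 0.02 (0.00682). The ratios of both genes were above 0 on all 3 arrays. B3galt5 averaged 0.17, and the 3 spots of B3galnt2 averaged −0.27, 0.03 and 0.03.

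Among the enzymes of the caps and of mucin-type chains no gene passed, against 22.6% of all genes. In limma, 0 of 7 sialyltransferase genes, 0 of 2 fucosyltransferase genes and 0 of 7 Galnt genes had an adjusted p under the threshold, while 0, 0 and 3 of them in that order had an unadjusted p under 0.05. St6gal1, which adds the alpha-2,6-linked sialic acid of N-glycans, averaged 0.06 with a 95% interval from −0.06 to 0.17. St3gal4, St3gal3 and St6galnac3 averaged −0.01, −0.02 and 0.09. The 3 spots of St8sia2, which builds polysialic acid, averaged −0.03, 0.02 and 0.11. Those of St3gal1 were −0.28 ± 0.05 (adjusted p = 0.00877), −0.09 and 0.13, so the spots of this gene did not have 1 direction. St6galnac5 had −0.05, −0.07 and −0.70, a mean of −0.27 ± 0.37 (0.19) with array 3 far below the other arrays. Fut8, which adds the core fucose of N-glycans, had means of −0.04 and −0.01 at its 2 spots, and Fut10 had −0.02, with 95% intervals that stayed between −0.16 and 0.11.

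The Galnt enzymes start mucin-type O-glycans by placing N-acetylgalactosamine on serine or threonine. Galnt2 had −0.21, −0.35 and −0.44, a mean of −0.33 ± 0.12 that did not pass (adjusted p = 0.0107), and Galnt10 had −0.16, −0.17 and −0.42, a mean of −0.25 ± 0.15 (0.0385). Both were below 0 on every array. Galnt1 averaged −0.19, and Galntl6, Galnt7, Galnt17 and the 2 spots of Galnt3 lay between −0.05 and 0.02. The enzymes that glycosylate Notch, a substrate of γ-secretase, were read from a further list of 10 measured genes. This list also holds enzymes of other O-linked sugars, such as C1galt1 and Ogt. Of the whole list, 1 gene fell (10%, against 10.3% of all genes). Pofut1, which adds O-fucose to the repeats of the Notch ectodomain, had a gene value of −0.49 ± 0.01 (9.27e-04). Its 2 spots disagreed, with ratios of −0.87, −0.79 and −0.92 on a clone of the small P collection (mean −0.86, 3.08e-04) and −0.12, −0.16 and −0.06 on an H clone (mean −0.11, 0.118). Of the Fringe genes, whose products extend that fucose, Lfng had −0.29, −0.17 and −0.66 (mean −0.37, 0.0352), and the gene values of Mfng and Rfng were 0.11 and −0.09. None of the Fringe genes passed.

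Heparan and chondroitin sulfate synthesis held the 3 lowest of the 89 spots, 1 of Ext1 and those of Chst12 and Chst11. Of 11 genes, 3 fell as gene values (27.3%, against 10.3% of all genes) and none rose, with a median of −0.29. Of the 18 spots 3 passed (16.7%), near the 18.2% of all tested spots. Chst11, which sulfates chondroitin on the 4-position, had −0.77, −0.73 and −0.83, a mean of −0.78 ± 0.05 (adjusted p = 3.74e-04), and its gene value passed under all 14 settings tried. Chst12, with the same type of activity, had −0.84, −0.80 and −1.54. Its mean of −1.06 ± 0.42 was lower than that of Chst11 but did not pass (0.00559), with array 3 far below the other arrays. Both genes were below 0 on every array. Chst10 and Chst15, which sulfate other positions or other glycans, averaged 0.01 and −0.01, with 95% intervals from −0.13 to 0.16 and from −0.13 to 0.11.

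Of the exostosin family, which polymerizes heparan sulfate, all 4 gene values were below 0, as were 3917 of all 8146 genes. Only those of Extl3 and Extl2 passed, and that of Ext1 averaged spots of opposite directions. Extl3, which starts the chain, had −0.57, −0.69 and −0.64, a mean of −0.63 ± 0.06 (adjusted p = 7.66e-04). Extl2, which acts on the linker, had −0.53, −0.38 and −0.76, a mean of −0.56 ± 0.19 that passed as a gene value (0.00469) and not as a spot (0.00534). Ext2, the partner of Ext1 in the polymerase, had −0.18, −0.18 and −0.51, a mean of −0.29 ± 0.19 (0.0442). Ext1 itself had 5 spots. One had −1.71, −1.76 and −2.12, a mean of −1.87 ± 0.22 (2.03e-04), a signal 3.65 times higher in DAPT-treated CHO than in S-1 and the lowest ratio among the 89 spots. The other spots of Ext1 had means of −0.29 ± 0.13 (0.0197), −0.17 ± 0.36 (0.382), 0.12 ± 0.02 (0.0966) and 0.36 ± 0.11 (0.00751). The last of these had 0.24, 0.44 and 0.40 and was above 0 on every array. The clones under the name of Ext1 thus ran in opposite directions, 4 of 5 did not pass, and the gene value of −0.37 ± 0.13 did not pass (0.00722). No single direction for Ext1 can be read from them.

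The heparan sulfotransferases showed no call at any of 6 spots in limma, of which 2 had an unadjusted p under 0.05. The 2 spots of Hs3st3b1 averaged 0.28 ± 0.07 (adjusted p = 0.0109) and −0.12, those of Hs6st2 −0.15 and −0.02, and those of Hs3st1 0.02 and 0.04. Further genes of these chains were taken from a list with 8 measured members, of which 3 fell (37.5%, against 10.3% of all genes) and none rose. This list too was chosen with earlier results of these data known. Ndst2, which removes acetyl groups and adds N-sulfate to heparan, had −0.89, −0.92 and −1.32, a mean of −1.04 ± 0.24 (0.00119). Xylt2, which places the xylose that anchors every such chain, had −0.66, −0.73 and −1.24, a mean of −0.88 ± 0.32 (0.00412). Sulf2, which trims sulfate from finished heparan chains outside the cell, had −0.58, −0.34 and −0.55, a mean of −0.49 ± 0.13 (0.00322). Ratios of all 3 genes were below 0 on every array. Glce, the epimerase of heparan, had −0.76, −1.02 and −0.45, a mean of −0.74 ± 0.28 that missed the threshold (0.00526).

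**Figure D3:**
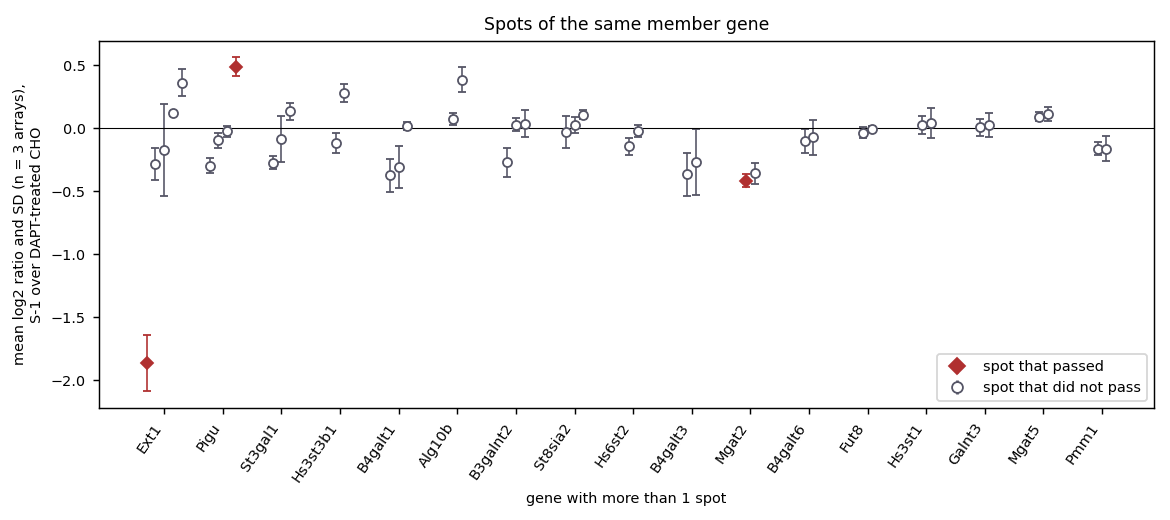
Mean log2 ratio (S-1 over DAPT-treated CHO) and SD of the 3 arrays for every spot of the 17 genes that have more than 1 spot, with genes ordered by the range of their spots. Filled red diamonds are spots that passed. The spots of Ext1 run between −1.87 and 0.36, and the only passing spot of Pigu lies above 0 while its other 3 spots lie below.

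The GPI anchor genes held calls in both directions among their 10 spots, 1 higher and 2 lower (30% in all, against 18.2% of all tested spots). Pigs, a subunit of the transamidase that attaches the finished anchor to proteins, had −0.61, −0.65 and −0.94, a mean of −0.73 ± 0.18 (adjusted p = 0.00207). Pigq, a subunit of the complex that starts the anchor with N-acetylglucosamine, had −0.55, −0.60 and −0.39, a mean of −0.52 ± 0.11 (0.00247). Both genes fell in S-1, with DAPT-treated CHO signals 1.66 and 1.43 times those of S-1. Pigc and Pigh, subunits of the same starting complex as Pigq, had means of 0.25 ± 0.04 (0.0104) and 0.18 ± 0.06 (0.036), neither of which passed. Ratios within the complex thus lay on opposite sides of 0 on every array. Pigm, the mannosyltransferase that adds the first mannose, had 0.40, 0.27 and 0.71 and a mean of 0.46 ± 0.23 (0.0153). Pigf averaged 0.20 ± 0.27 (0.205), with 0.52 on array 3 and 0.09 and 0.01 on the other arrays.

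Pigu, another transamidase subunit, had 4 spots that did not share a direction. The spot that passed had 0.54, 0.52 and 0.40, a mean of 0.49 ± 0.07 (adjusted p = 0.00187). The other 3 had −0.33, −0.23 and −0.34 (mean −0.30 ± 0.06, 0.00744), −0.13, −0.13 and −0.03 (mean −0.10, 0.177), and −0.02, 0.02 and −0.07 (mean −0.03, 0.683). The gene value was 0.02 (0.787), so the call of this gene rested on 1 clone of 4. From a further list of anchor remodeling and glycolipid genes, 4 were measured and 1 fell (25%, against 10.3% of all genes). This was B3gnt5, which starts a class of glycolipids, with −0.40, −0.73 and −0.47, a mean of −0.54 ± 0.17 (0.00411).

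The names caught by their letters fell outside these pathways. Pigr had 0.33, 0.29 and 0.35, a mean of 0.32 ± 0.03 (adjusted p = 0.00432), and was the only spot of the set in the smaller P collection of clones. It rose in S-1. The spot did not pass when each array was centered on its median, when each clone collection was centered on its own, with the controls included, or without array 1 or array 2, whereas the gene value passed in the first 3 of these settings (0.00379, 0.00453 and 0.00329). Man2c1 had −0.26, −0.25 and −0.62, a mean of −0.38 ± 0.21 that did not pass (0.0243). Without both, 11 of 61 genes passed (18%, against 22.6% of all genes).

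Where a gene had several spots, their agreement varied. The range between the spots of a gene had a median of 0.122 over the 17 genes with more than 1 spot. Over all 2877 such genes of the array the median was 0.225. These medians are not a like comparison, as 15.3% of all tested spots lay beyond 0.5, against 9 of the 89. The range was 0.0001 for Pmm1, 0.019 for Mgat5 and 0.0575 for Mgat2. It went up to 0.394 for B4galt1, 0.408 for St3gal1, 0.786 for Pigu and 2.23 for Ext1. Spots on both sides of 0 were seen for Ext1, Pigu, St3gal1, Hs3st3b1, B4galt1, B3galnt2 and St8sia2. All spots of Mgat5, Galnt3, Hs3st1, Fut8 and B4galt6 lay near 0, so their small ranges say little about the clones. Only 3 of these 17 genes had a spot that passed (Ext1, Pigu and Mgat2), and of these Mgat2 alone passed as a gene. The other 46 genes rest on 1 clone each, and 11 of them passed (23.9%, against 22.6% of all genes).

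**Figure D4:**
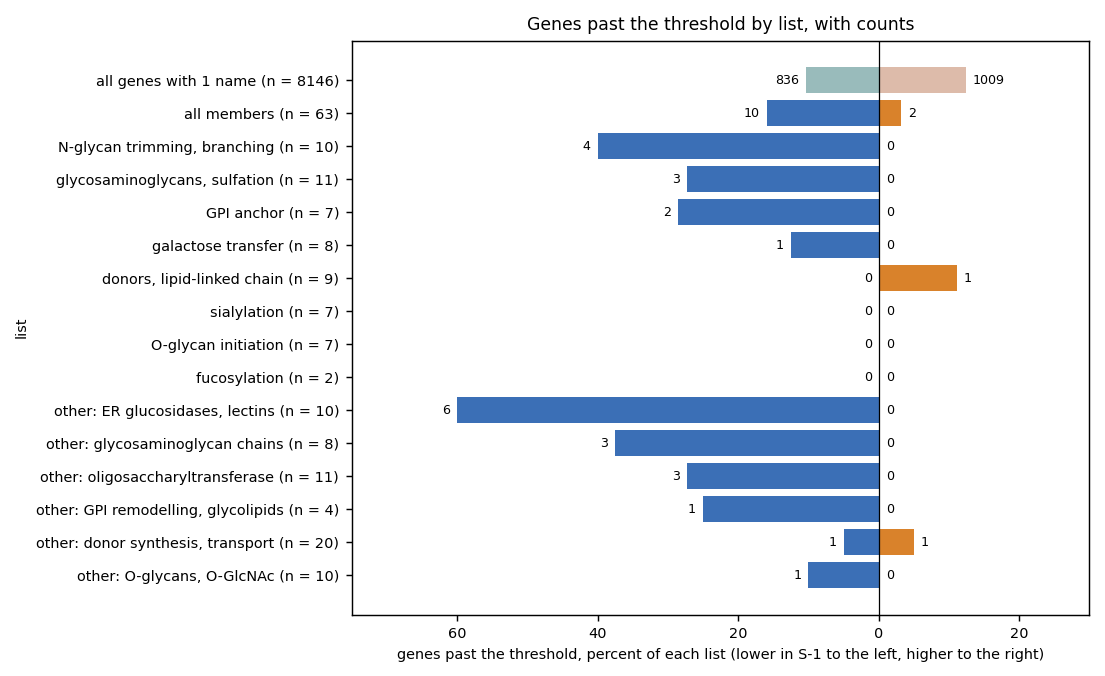
Percent of the genes of each list that passed in the gene fit (adjusted p under 0.005), lower in S-1 to the left and higher to the right, with the number of genes at the end of each bar and all genes of the array at the top. In the N-glycan trimming list 4 of 10 genes fell, in the ER glucosidase and lectin list 6 of 10 fell, and no sialyltransferase, fucosyltransferase or Galnt gene passed. The lists were chosen with earlier results of these data known, and their shares were not tested.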

How the data were processed

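Amplified RNA of S-1 cells and of DAPT-treated parental CHO cells was hybridized in 2 colors to mouse cDNA arrays in 3 independent experiments. The log2 values used here are ratios that the authors read with GenePix Pro, normalized in R by lowess within print-tip groups (no background was subtracted) and deposited, 1 for every spot on every array. Intensities were not used here, so signal over background is unknown, and the precision given rests on 3 arrays.

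Of 17664 spots, 736 at 23 positions repeated in 32 blocks carry no gene name and followed the dye (r = 0.990 between arrays 1 and 2, −0.960 between arrays 1 and 3). They were taken as controls and left out. No further normalization was applied (median log2 ratio of the tested spots 0.02, 0.01 and 0.00 on arrays 1, 2 and 3). limma 3.58.1 in R 4.3.3 fitted 1 coefficient against 0 with empirical Bayes variance and Benjamini-Hochberg adjustment over all tested spots, and again over gene values, the mean of the spots with 1 name. Every p-value is from this test, two-sided, at a threshold of 0.005, and intervals are at 95%. Because the sources name separate experiments, the spread includes that between cultures. It also includes any dye effect, since the dyes were exchanged on array 3 alone and this fit has no dye term. These parts of the spread, and so of every SD and p-value, were not separated.

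Names came from the array's annotation, and spots with several names were left out. Clone collections (H, P, N) followed the position in a block, which was checked with the clones of the study's lists. These were paired to spots by the fold they print (2514 of 2658 paired, 2513 with the letter of their position). The printed fold was matched to 2 times the linear ratio used here, or to 2 times its inverse for a fall. Of the 89 spots, 88 were H clones and 1 was a P clone. The members and the lists were chosen with earlier results of these data known. Named with full values were the spots that passed and the other spots of their genes, the 2 largest other means in each role, passing genes of the further lists (up to 4 a list by size) and the Notch O-glycan genes. Canx, Lman1, Stt3a, Magt1, Mogs, Prkcsh, Edem1, Edem2 and Glce were added after their values were seen. Alternatives were a threshold of 0.05, centering, scaling and quantile normalization of the arrays, a dye coefficient, array weights, a robust prior, the controls included, 480 spots at positions from which the study lists no clone left out, H clones alone, each collection centered, gene values by median, Pigr and Man2c1 left out, and each array left out. The script was tested on simulated data. Tables and figures used Python 3.11.15, NumPy 2.4.6, pandas 2.3.3 and Matplotlib 3.10.9.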

Additional observations from a re-analysis of the deposited data

How the results depend on the processing

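No direction of the 12 spots or 12 gene values that passed reversed under any alternative. Spots that did not pass can turn: 1 of Ext1 (−0.17), 1 of St3gal1 (−0.09) and Man1c1 (−0.05) averaged 0.04, 0.02 and 0.03 without array 3. Every test is paired by array, because each ratio already pairs the S-1 and DAPT-treated CHO cultures of 1 array. No further pairing was possible, as no other group shares the replicate numbers. The 3 arrays limit the precision, and signal over background was not used here. With the dye as a coefficient, 43 spots passed (14 higher, 29 lower), with 31 genes and 37 further glycan genes. The share of all tested spots went to 40.4% and that of all genes to 44.9%. Array weights gave 30 spots (11 higher, 19 lower), 25 genes and 27 further genes (31.9% of all spots and 38.5% of all genes). A threshold of 0.05 gave 39 spots (13 higher, 26 lower), 30 genes and 35 further genes (39.8% of all spots and 46.2% of all genes). With the control spots included, 3 spots passed (0 higher, 3 lower; 6.71% of all), and 44 of 89 had an unadjusted p under 0.05 in limma. Centering the arrays or fitting H clones alone left 1 spot higher. With each array left out in turn, the spots that passed numbered 0 to 34 (0 to 12 higher, 0 to 22 lower), the genes 1 to 28 and the further genes 2 to 30. Over the whole array the shares then ran from 2.14% to 37% of spots and from 5.97% to 40.5% of genes. All 12 spots kept their call with the dye coefficient, array weights, scaling, quantile normalization, the robust prior and without array 3. Dpm1, Chst12, Extl2 and Man2a1 passed as spots with the dye coefficient (0.57, −1.18, −0.61 and −0.41). The gene values of Pmm2 and Extl2 did not pass with a robust prior or with H clones alone, nor that of Pmm2 with unlisted positions left out. The cause of these shifts was not tested.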

Other observations

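Spots with more than 1 gene name, left out above, included 5 with a symbol of the rule, and none passed in limma. The largest mean was that of the spot named for both Stat3 and Dpm1, with 0.26, 0.30 and 0.48, a mean of 0.35 ± 0.12 (adjusted p = 0.00998). The spot named only for Dpm1 also had ratios above 0 on all 3 arrays. The spots that share a name with Man2a2, Galnt10, Galnt4 and Chst5 had means of −0.06, −0.20, 0.02 and −0.16.

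A clone that the study lists under Hs3st1 is annotated as Rfc3, a subunit of the clamp loader of DNA replication, in the table used here. It had 0.49, 0.55 and 0.48, a mean of 0.51 ± 0.04 (adjusted p = 0.00119), while the spots annotated as Hs3st1 averaged 0.02 and 0.04. Which name the clone should carry was not tested.

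Array 3, on which the dyes were exchanged, differed from the mean of arrays 1 and 2 by a median of −0.03 over the 89 spots and of 0.00 over all tested spots. Beyond 0.3 it was lower at 12 of the 89 spots, Chst12 and St6galnac5 among them, and higher at 5, Pigm and Pigf among them. Over all 16928 tested spots it was lower at 1342 and higher at 1418.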
